A study of Mus musculus with 4 samples.

Results

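The mRNAs of 48 enzymes of glycolysis, the pyruvate dehydrogenase step, the pentose phosphate pathway and the tricarboxylic acid (TCA) cycle were followed between cell bodies and protrusions of mouse melanoma cells. The 48 genes were picked by symbol from a named list of enzymes, not by any measured value, out of 16537 genes measured. They fell into 5 groups, with 18 genes of glycolysis, 6 of the pyruvate dehydrogenase complex and its kinases, 7 of the pentose phosphate pathway, 12 of the TCA cycle, and 5 enzymes beside the cycle, 4 cytosolic and 1 mitochondrial, that handle isocitrate, malate and citrate.

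YUMM1.7 is an established mouse melanoma line whose engineered changes include activated *Braf* and inactivated *Cdkn2a*, here unedited and labelled wildtype. Cells were plated on fibronectin-coated membranes with 1-µm pores, which admit protrusions but not the rest of the cell. The cell body fraction is what a scraper removed, and the protrusion fraction is the RNA lysed from the swabbed insert. Each fraction was sequenced in 2 biological replicates of 6 inserts each. All 4 libraries come from the same line with no treatment, and no label says that the replicates were separate cultures, so the p-values measure the spread between these libraries only.

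Glycolysis runs in the cytosol and turns glucose into pyruvate, which is either reduced to lactate or carried into the mitochondrion. There the pyruvate dehydrogenase complex makes acetyl-CoA, the fuel of the TCA cycle, while pyruvate dehydrogenase kinases switch that complex off. The pentose phosphate pathway branches from upper glycolysis and yields NADPH and ribose phosphate. Melanoma cells with an active BRAF pathway are known for strong glycolysis, and many of these steps can be catalyzed by more than one isozyme, each from its own gene.

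The libraries held 25854888 to 30994908 reads assigned to genes. Levels are given in TPM, a gene's length-scaled share of a library in which all genes sum to 1000000. Of the melanocyte markers, *Mitf* was at 5.12 to 6.17 TPM and *Gpnmb* at 37.8 to 77.7 TPM, while *Tyr* did not exceed 0.762 TPM and *Pmel* and *Mc1r* lay near 0, so the pigment genes gave little check of the label. Replicate 1 of the protrusions also held hepatocyte mRNAs. The 20 hepatocyte markers summed to 74.6 TPM there and to 1.65 to 4.23 TPM in the other libraries, with *Alb* at 28.4 TPM. The liver enzymes *Pck1* (0.651 TPM) and *G6pc* (0.330 TPM) were likewise highest in that library, and their part in the results was not tested. Members and other pathway genes called without the block are also given without that library.

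Most of the enzyme mRNAs differed by less than 2-fold between the fractions. Differences are fold changes on the log2(TPM + 0.5) scale, protrusions minus cell bodies. TPM are shares of the RNA in each fraction, so they do not tell how much of a cell's pool of an mRNA lies in protrusions. Of the 48 genes, 46 reached the minimum mean of 1 TPM and were tested. In limma (adjusted p under 0.05), 2 of the 46 were higher and 1 was lower in protrusions, against 2.99% higher and 4.25% lower of all 11400 genes tested. With the replicate number as a block, 4 were higher and 1 was lower, against backgrounds of 8.08% and 13.3%. The median log2 fold change of the 46 was -0.01, that of all genes -0.07, and the 95% confidence interval stayed within a 2-fold change in either direction for 43 of the 46, as it did for 74.1% of all genes.

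**Figure D1:**
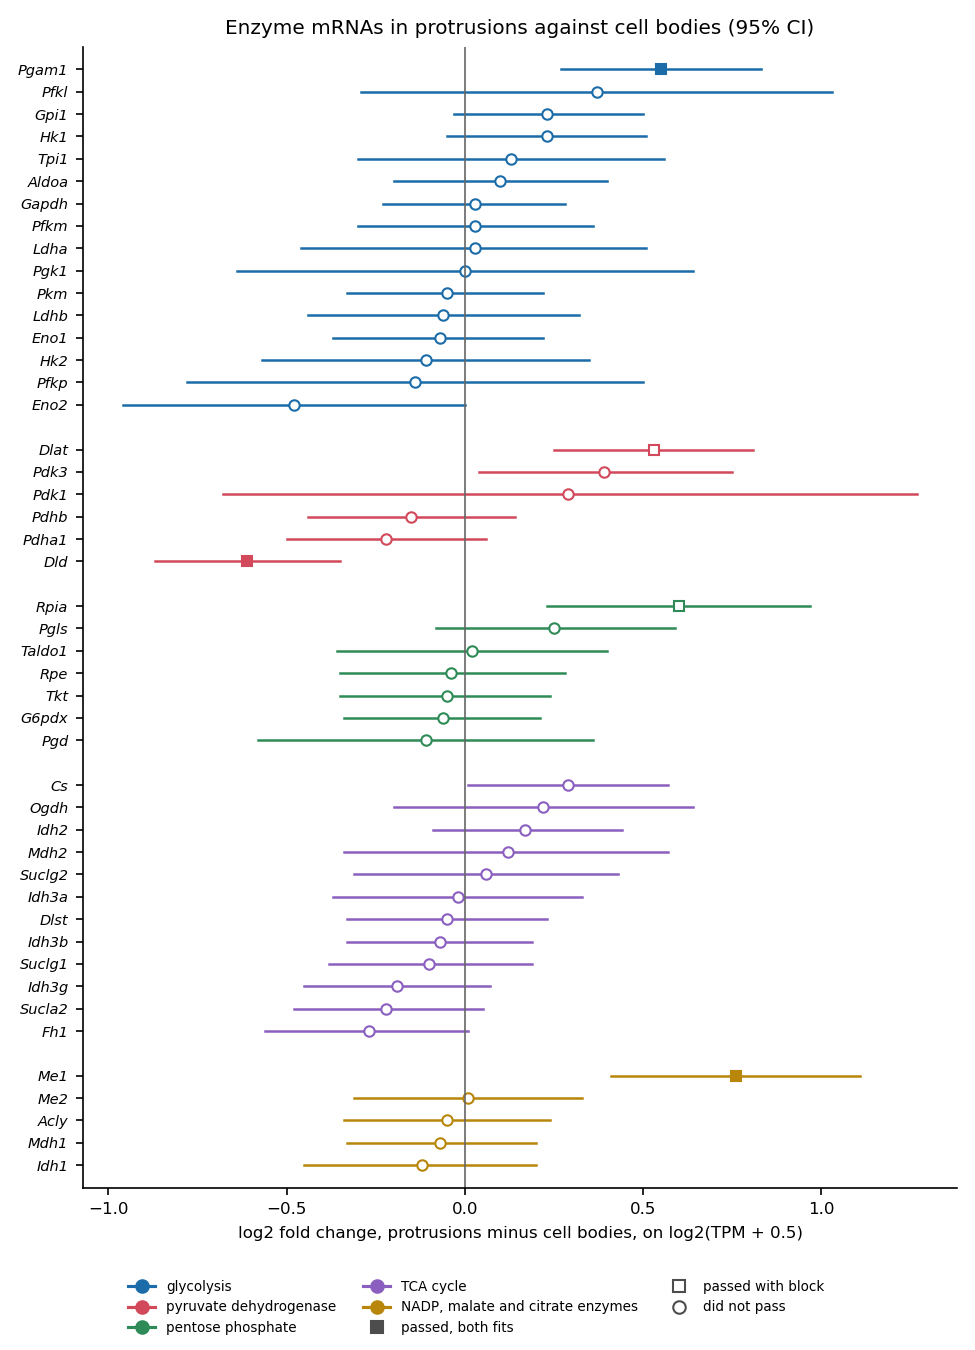
Log2 fold change of each tested enzyme mRNA, protrusions minus cell bodies, on the log2(TPM + 0.5) scale, with its 95% confidence interval from limma without the block; colors mark the 5 groups, filled squares passed the test in both fits, open squares passed with the replicate block alone. Most points sit close to 0, with *Me1* (0.76) farthest to the right and *Dld* (-0.61) farthest to the left.

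The members that moved came from different steps. *Me1*, *Pgam1* and, with the block, *Dlat* and *Rpia* rose in protrusions, and *Dld* fell. As fitted, each of these changes was smaller than 2-fold.

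*Me1* encodes the cytosolic malic enzyme, which makes pyruvate and NADPH from malate. It was at 30.2 and 35.1 TPM in cell bodies and at 51.7 and 59.5 TPM in protrusions. Both protrusion libraries lay above both cell body libraries, a log2 change of 0.76 (with an SE of 0.14, limma adjusted p = 0.0425, and 0.00388 with the block). *Me1* lies on the minus strand at chr9:86581362-86695914 (mm10), and 30 bases of its exons are overlapped on the other strand by *A330041J22Rik*.

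*Pgam1* encodes phosphoglycerate mutase, a late step of glycolysis. It was at 450 and 502 TPM in cell bodies and at 720 and 671 TPM in protrusions. The fractions did not overlap, with a log2 change of 0.55 (with an SE of 0.11, limma adjusted p = 0.0481, and 0.0112 with the block). *Pgam1* lies on the plus strand at chr19:41911870-41918665 (mm10). GENCODE lists 2 pseudogenes named after it, so some of its reads may be shared.

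*Dld* encodes dihydrolipoamide dehydrogenase, the subunit that the pyruvate and oxoglutarate dehydrogenase complexes share. It was at 154 and 159 TPM in cell bodies and at 105 and 100 TPM in protrusions. *Dld* was thus lower in both protrusion libraries, with a log2 change of -0.61 (with an SE of 0.11, limma adjusted p = 0.0396, and 0.00638 with the block). Its transcript has 40.6% GC, and across the 10557 tested genes with a coding transcript GC content and log2 fold change were correlated at a Spearman rho of 0.40. After a correction for GC content the log2 fold change of *Dld* was -0.31 (adjusted p = 0.124 from limma, and 0.0720 with the block). *Dld* lies on the minus strand at chr12:31331561-31351471 (mm10).

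*Dlat* encodes the dihydrolipoamide acetyltransferase core of the pyruvate dehydrogenase complex. It was at 35.3 and 35.6 TPM in cell bodies and at 51.2 and 51.6 TPM in protrusions, a log2 change of 0.53 (with an SE of 0.11, limma adjusted p = 0.0509, and 0.0198 with the block). *Rpia*, whose product converts ribulose phosphate to ribose phosphate, was at 19.4 and 16.0 TPM in cell bodies and at 27.7 and 26.2 TPM in protrusions, a log2 change of 0.60 (with an SE of 0.15, limma adjusted p = 0.0665, and 0.0219 with the block). The replicates of *Dlat* were nearly identical within each fraction, and in neither gene did the fractions overlap. *Dlat* lies at chr9:50634632-50659780 and *Rpia* at chr6:70765719-70792175, both on the minus strand (mm10).

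Each of the 3 calls made without the block needed all 4 libraries. With any library left out, the adjusted p from limma was 0.0750 to 0.213 for *Me1*, 0.123 to 0.201 for *Pgam1* and 0.0822 to 0.200 for *Dld*. Without replicate 1 of the protrusions, the library with hepatocyte mRNAs, their log2 fold changes were 0.86, 0.50 and -0.64 in that order, and 158 of all genes passed, while with any other library left out 0 genes passed in limma and 1899 to 3157 had an unadjusted p under 0.05.

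**Figure D2:**
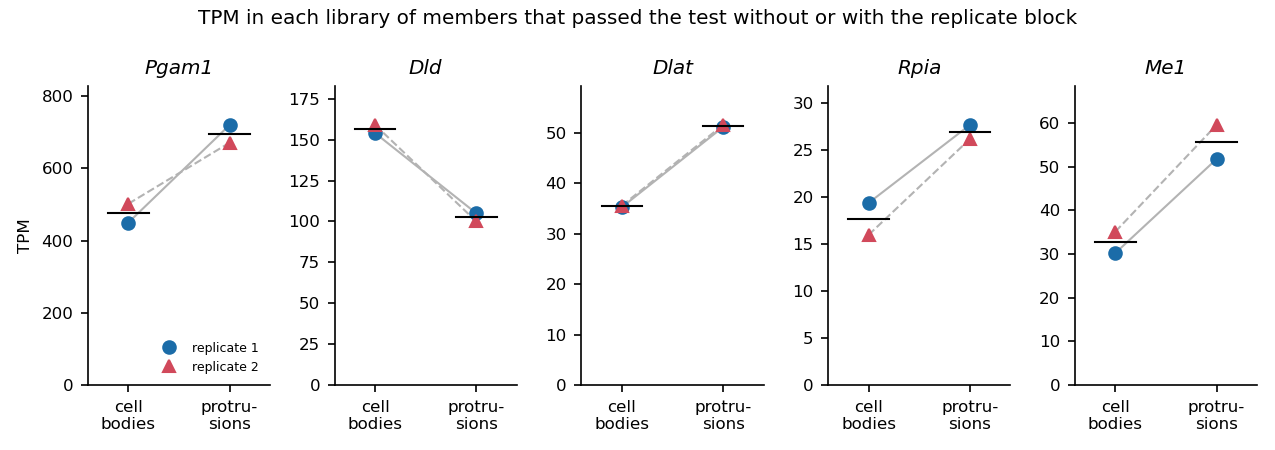
TPM of *Pgam1*, *Dld*, *Dlat*, *Rpia* and *Me1* in each library, with circles for replicate 1, triangles for replicate 2, lines joining the fractions of a replicate number and bars at the mean of each fraction. In every panel the 2 protrusion libraries lie on 1 side of the 2 cell body libraries, below them for *Dld* and above them for the others.

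The study ties the protrusion localization of *Kif1c*, *Net1* and *Rab13* mRNAs to GA-rich stretches of their 3′ UTRs. The longest run of A and G alone (holding both letters, read on the mRNA strand) in the annotated 3′ UTR is therefore shown for the enzyme mRNAs that moved, beside those 3 mRNAs. Capitals mark the run, lower case its flanks, written 5′ to 3′ from GENCODE transcripts of GRCm38.
Pgam1: aattcAGGGAGGAActgtg
Dld: ttgacAGGAAGGAGctgga
Dlat: gaaatGGAAGAGAGGAtgttt
Rpia: tttttAAAAAGAAAtttaa
Me1: tctctGAGAAAAAAAAAccaag
Kif1c: aggctGAGGGAAGGAAGAGGGcgcgg
Net1: AGGGAAGGGAAGGGAAGAGAAGAGAAGAG
Rab13: tttGAGAAGAGGAAAGGAAGAAGAAAtga

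The runs of the 5 enzyme mRNAs were 9 to 12 bases long. That of *Me1* began 965 bases after the stop codon (chr9:86581761-86581772) and that of *Pgam1* 328 bases after it (chr19:41918103-41918111). The runs of *Dld* (chr12:31331850-31331858), *Dlat* (chr9:50635565-50635575) and *Rpia* (chr6:70766359-70766367) lay on the minus strand, as did that of *Me1*. Those of *Kif1c*, *Net1* and *Rab13* were 16, 29 and 23 bases long, at chr11:70729044-70729059 (plus strand), chr13:3883036-3883064 (minus strand) and chr3:90225787-90225809 (plus strand), all in mm10. The median longest run was 12 bases over the 10508 tested genes with an annotated 3′ UTR and 10 bases over the tested members. Of the 46 tested members, only *Hk2* had a run of at least 23 bases, the length in *Rab13*, as did 7.26% of all these genes. The 16 bases of *Kif1c* were also reached by *Hk1* and *Idh1* (16 each), *Ogdh* and *Dlst* (17 each) and *Tkt* (18). None of these passed in limma with or without the block, and the share of all genes reaching 16 bases was not counted. The run of *Hk2* was the longest of the members at 43 bases, and its mRNA differed by -0.11 on the log2 scale (95% confidence interval -0.57 to 0.35).

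The glycolysis mRNAs were abundant and, *Pgam1* apart, did not pass the test. The 18 members together made up 0.918% and 0.782% of the TPM of the cell body libraries and 0.949% and 0.815% of the protrusion libraries. Both values of replicate 1 were above both values of replicate 2, so the spread between replicates exceeded the difference between fractions. Of the 16 tested members, 1 rose and 0 fell in limma, against 2.99% and 4.25% of all genes tested. In limma 1 had an unadjusted p under 0.05, and 1 passed with voom. Over all 11400 genes tested, 3566 had such a p and 1720 passed with voom. The median log2 fold change of the glycolysis members was 0.03.

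A few genes carried this pool. From here on, a signed value in parentheses after the TPM is the log2 fold change, protrusions minus cell bodies, followed by its 95% confidence interval or SE. The 8 with the highest mean TPM (*Pkm*, *Ldha*, *Pgk1*, *Eno1*, *Aldoa*, *Gapdh*, *Tpi1* and *Pgam1*) held 94.2% to 95.1% of it in each library. *Pkm*, the pyruvate kinase gene, was at 1902 and 1737 TPM in cell bodies and at 1800 and 1703 TPM in protrusions, or -0.05 on the log2 scale (95% confidence interval -0.33 to 0.22). *Gapdh*, whose product oxidizes glyceraldehyde phosphate, was at 838 and 818 TPM in cell bodies and at 870 and 817 TPM in protrusions (0.03, -0.23 to 0.28). For these genes a change of 2-fold in either direction lay outside the interval.

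For *Ldha* and *Pgk1* the replicates were farther apart. *Ldha*, which reduces pyruvate to lactate, was at 1451 and 1062 TPM in cell bodies and at 1434 and 1118 TPM in protrusions (0.03, -0.46 to 0.51). *Pgk1*, the phosphoglycerate kinase that makes ATP in mid-glycolysis, was at 1364 and 880 TPM in cell bodies and at 1312 and 916 TPM in protrusions (0.00, -0.64 to 0.64). In both genes replicate 1 was the higher in each fraction. With the replicate block, the intervals were -0.24 to 0.30 for *Ldha* and -0.27 to 0.27 for *Pgk1*. GENCODE lists 2 pseudogenes each named after *Ldha*, *Pgk1*, *Gapdh* and *Aldoa*, and reads of these genes may be shared with them.

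Among the members, 1 gene dominated in all 4 libraries at each glycolytic step with several isozymes, except at phosphofructokinase. *Aldoa* was at 934 and 913 TPM in cell bodies and at 1076 and 910 TPM in protrusions. *Aldoc*, with *Pfkfb3* the lowest of the members, was at 0.572 and 0.680 TPM in cell bodies and at 0.392 and 0.242 TPM in protrusions, with as few as 7 reads in a library. *Pfkfb3*, whose product makes an activator of phosphofructokinase, was at 0.724 and 0.920 TPM in cell bodies and at 1.11 and 0.956 TPM in protrusions, and neither gene was tested.

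*Eno1* exceeded *Eno2*, the neuronal enolase, 124-fold in mean TPM, and *Ldha* exceeded *Ldhb* 102-fold. *Eno2* was at 9.24 and 8.74 TPM in cell bodies and at 7.29 and 5.42 TPM in protrusions, a log2 change of -0.48 (with an SE of 0.20, limma adjusted p = 0.161). *Eno1* was at 1035 and 917 TPM in cell bodies and at 971 and 882 TPM in protrusions (-0.07, SE 0.12). *Eno3*, an enolase gene outside the members, exceeded *Eno2* in every library. It was at 22.6 and 24.9 TPM in cell bodies and at 24.4 and 25.7 TPM in protrusions (0.08, SE 0.13). *Ldhb* stayed between 11.3 and 13.1 TPM in all 4 libraries.

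Of the hexokinases, which trap glucose in the cell, *Hk1* was at 38.5 and 39.1 TPM in cell bodies and at 46.3 and 45.0 TPM in protrusions (0.23, SE 0.11, adjusted p = 0.228 from limma). *Hk2* was at 10.5 and 8.86 TPM in cell bodies and at 9.92 and 7.92 TPM in protrusions. The share of *Hk2* in the TPM of the pair was 21.3% and 18.5% in cell bodies and 17.6% and 15.0% in protrusions. The log2 ratio of *Hk2* to *Hk1* changed by -0.34 in replicate 1 and by -0.35 in replicate 2. *Adpgk*, an ADP-dependent glucokinase outside the members, was at 50.9 and 50.6 TPM in cell bodies, above *Hk1*. In protrusions *Adpgk* was at 38.4 and 29.2 TPM, below *Hk1*.

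The phosphofructokinases, which commit sugar to glycolysis, were expressed from 3 genes. *Pfkl* was at 77.4 and 47.8 TPM in cell bodies and at 93.1 and 66.8 TPM in protrusions (0.37, SE 0.27, adjusted p = 0.387 from limma). With the block the SE of *Pfkl* was 0.13 (adjusted p = 0.0676 from limma). *Pfkp* took 35.2% and 36.3% of the TPM of the 3 genes in cell bodies and 30.9% and 27.1% in protrusions, and *Pfkm* 11.4% and 16.7% against 10.6% and 15.0%. *Pfkl* thus led in all 4 libraries, and relative to it the log2 ratio of *Pfkp* changed by -0.31 in replicate 1 and -0.71 in replicate 2. Exons of *Pfkp* are overlapped over 748 bases on the other strand by *Pitrm1*, and the sources used here do not say whether the counting used strand.

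**Figure D3:**
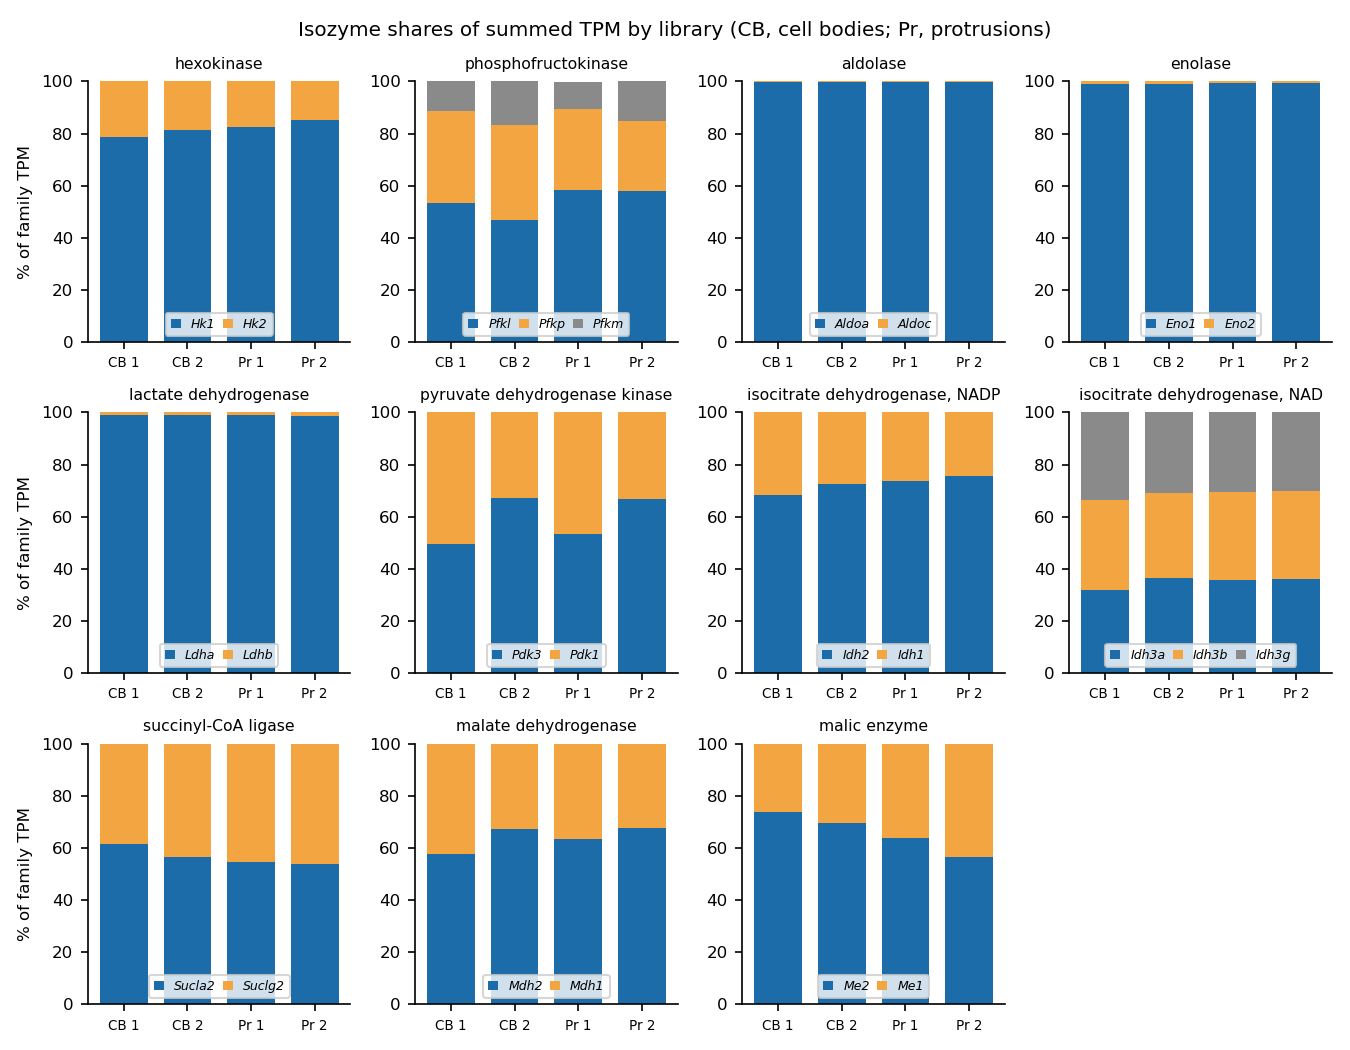
Share of each isozyme or subunit in the summed TPM of the members of its family, in percent, for each library (CB for cell bodies, Pr for protrusions, 1 and 2 for replicates). *Idh3a*, *Idh3b* and *Idh3g* encode subunits of the same enzyme, not alternatives to each other. *Aldoc*, *Eno2* and *Ldhb* are thin slivers at the top of their bars, and the *Me1* share is 26.3% and 30.5% in cell bodies and 36.4% and 43.7% in protrusions.

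Over 13 pairs, each set against the most abundant gene of its family, the log2 ratio moved the same way in both replicates in 10. These pairs include *Idh3b* and *Idh3g* against *Idh3a*, which are subunits of the same enzyme and not isozymes. Some pairs share a reference, as *Pfkp* and *Pfkm* share *Pfkl*, so not all are independent. The same count was not made over other pairs of genes, so it cannot be read as particular to these families. With 2 libraries in each fraction, an exact permutation test (two-sided) cannot give a p below 0.333, so these ratios are given as values only. The largest shift was that of *Me1* against *Me2*, the mitochondrial malic enzyme, at 0.67 in replicate 1 and 0.82 in replicate 2. *Me2* itself was at 84.7 and 80.0 TPM in cell bodies and at 90.3 and 76.5 TPM in protrusions (0.01, 95% confidence interval -0.31 to 0.33). In this family *Me1* passed and *Me2* did not, and the difference between them was not tested.

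The pyruvate dehydrogenase members did not share a direction. *Dlat* rose with the block and *Dld* fell, as given above, so that the ratio of *Dld* to *Dlat* TPM was 4.37 and 4.46 in cell bodies and 2.05 and 1.94 in protrusions. *Pdha1* and *Pdhb*, the subunits of the decarboxylase that binds pyruvate, did not pass. *Pdha1* was at 240 and 227 TPM in cell bodies and at 212 and 188 TPM in protrusions (-0.22, SE 0.11, adjusted p = 0.241 from limma). *Pdhb* was at 130 and 138 TPM in cell bodies and at 114 and 128 TPM in protrusions (-0.15, SE 0.12, adjusted p = 0.422 from limma).

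The members include 2 pyruvate dehydrogenase kinases, of which *Pdk1* was near *Pdk3* in replicate 1 and below it in replicate 2. *Pdk3* was at 33.5 and 39.2 TPM in cell bodies and at 51.2 and 44.6 TPM in protrusions (0.39, SE 0.14, adjusted p = 0.132 from limma). *Pdk1* was at 34.3 and 19.3 TPM in cell bodies and at 44.9 and 22.3 TPM in protrusions (0.29, SE 0.40, adjusted p = 0.650 from limma). For *Pdk1* the fractions overlapped, and its interval without the block, -0.68 to 1.27, was the widest of the members tested. With the block its interval was -0.04 to 0.62 (adjusted p = 0.184 from limma).

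In the pentose phosphate pathway 0 of 7 members passed without the block in limma, 1 had an unadjusted p under 0.05, and *Rpia* passed with the block and with voom. Of all 11400 genes tested, 3566 had such a p, 2434 passed with the block and 1720 with voom. The median log2 fold change of the 7 was -0.04. *Taldo1*, the transaldolase gene, was the most abundant, at 239 and 299 TPM in cell bodies and at 249 and 294 TPM in protrusions (0.02, SE 0.16). *Pgls*, which opens the lactone made by the first enzyme, was at 137 TPM in each cell body library and at 147 and 182 TPM in protrusions (0.25, SE 0.14, adjusted p = 0.258 from limma). *Pgd*, a dehydrogenase that yields NADPH, was at 124 and 158 TPM in cell bodies and at 112 and 151 TPM in protrusions (-0.11, SE 0.19). *G6pdx*, the entry enzyme, stayed between 99.7 and 111 TPM. Apart from *Rpia*, then, *Pgls* alone had protrusion values above both cell body values.

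In the TCA cycle 0 of 12 members passed in limma with or without the block, 0 passed with voom, and 1 had an unadjusted p under 0.05. Such a p was found for 3566 of all 11400 genes tested, and 1720 passed with voom. The median log2 fold change of the 12 was -0.03, and all 12 intervals lay within a 2-fold change. Of the 12, 2 did not overlap between fractions on the high side and 5 on the low side, against 26.4% and 37.0% of all genes. *Cs*, the citrate synthase gene, was at 182 and 195 TPM in cell bodies and at 241 and 220 TPM in protrusions (0.29, SE 0.11, adjusted p = 0.146 from limma). *Fh1*, the fumarase gene, was at 137 and 138 TPM in cell bodies and at 121 and 107 TPM in protrusions (-0.27, SE 0.12, adjusted p = 0.172 from limma). *Mdh2*, the mitochondrial malate dehydrogenase, was the most abundant, at 234 and 331 TPM in cell bodies and at 282 and 322 TPM in protrusions (0.12, SE 0.19). *Cs* and *Fh1* had the highest and the lowest log2 fold change of this group.

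The genes of a family in the cycle were expressed within the same order of magnitude. The 3 subunits of the NAD-linked isocitrate dehydrogenase, *Idh3a*, *Idh3b* and *Idh3g*, lay between 110 and 151 TPM in all libraries. *Idh2*, the mitochondrial NADP-linked enzyme, was at 163 and 177 TPM in cell bodies and at 196 and 188 TPM in protrusions (0.17, SE 0.11). *Idh1*, its cytosolic counterpart, was at 75.2 and 67.2 TPM in cell bodies and at 70.2 and 60.7 TPM in protrusions (-0.12, SE 0.13). The share of *Idh1* in the pair was 31.6% and 27.5% in cell bodies and 26.4% and 24.4% in protrusions. *Suclg2* and *Sucla2*, alternative subunits of succinyl-CoA ligase, were at a ratio of 0.628 and 0.779 in cell bodies and of 0.834 and 0.862 in protrusions. Neither gene passed, at log2 fold changes of 0.06 (SE 0.15) for *Suclg2* and -0.22 (SE 0.11) for *Sucla2*.

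Among the 5 enzymes beside the cycle, *Me1* alone passed. *Mdh1*, the cytosolic malate dehydrogenase, was at 172 and 161 TPM in cell bodies and at 164 and 155 TPM in protrusions (-0.07, SE 0.11). *Acly*, which splits exported citrate for lipid synthesis, was at 124 and 115 TPM in cell bodies and at 122 and 110 TPM in protrusions (-0.05, SE 0.12). In both genes the fractions overlapped. By the site of the enzyme, 2 of 27 tested members of the cytosol rose and 0 fell in limma without the block. Of 19 in the mitochondrial matrix, 0 rose and 1 fell. With the block, 3 rose and 0 fell in the cytosol, and 1 rose and 1 fell in the matrix. The median log2 fold changes were 0.00 for the cytosol and -0.02 for the matrix. Of all genes tested, 2.99% rose and 4.25% fell, or 8.08% and 13.3% with the block. The 2 sites were not compared by a test.

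Other genes of these pathways, from a list of 65 of which 58 were in the table analysed here, were tested alongside. Of the 34 that reached 1 TPM, 1 rose and 1 fell in limma, and with the block 1 rose and 6 fell, against the shares of all genes given above (2.99% and 4.25%, and 8.08% and 13.3% with the block). *Sdhc*, a membrane subunit of succinate dehydrogenase, was at 113 and 84.2 TPM in cell bodies and at 173 and 164 TPM in protrusions (0.78, SE 0.16, adjusted p = 0.0482 from limma). *Bsg*, the chaperone of lactate transporters at the cell surface, was at 379 and 315 TPM in cell bodies and at 224 and 173 TPM in protrusions (-0.81, SE 0.17, adjusted p = 0.0484 from limma). Both calls were lost with any 1 library left out. As given above, most or all calls over all genes were then lost too, so the loss says nothing particular about these genes. Without replicate 1 of the protrusions the adjusted p from limma was 0.118 for *Sdhc*, still higher in protrusions, and 0.0584 for *Bsg*, still lower. The range over the 4 libraries left out was 0.0899 to 0.202 for *Sdhc* and 0.0584 to 0.212 for *Bsg* (adjusted p from limma). *Bsg* also missed the threshold under median rescaling (adjusted p = 0.0554 from limma) and quantile normalization (adjusted p = 0.0510 from limma).

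Another 5 of these genes fell with the block alone, of which 4 are described. *Slc16a1*, a lactate transporter, was at 72.4 and 57.1 TPM in cell bodies and at 44.8 and 27.5 TPM in protrusions (-0.86, adjusted p = 0.0874 from limma, and 0.00272 with the block). *Sdha*, the catalytic subunit of succinate dehydrogenase, was at 178 and 180 TPM in cell bodies and at 137 and 125 TPM in protrusions (-0.45, adjusted p = 0.0635 from limma, and 0.0248 with the block). *Sdha* and *Sdhc*, of the same complex, thus had opposite signs, and *Sdhb* and *Sdhd* were at 0.02 and -0.02. *Adpgk*, an ADP-dependent glucokinase, had a log2 fold change of -0.59 (0.0174 from limma with the block) and *Pdp2*, a phosphatase that reactivates pyruvate dehydrogenase, at -0.81 (0.0258 from limma with the block). The list of transporters had 4 tested genes, which include the glucose transporter *Slc2a1* (-0.64, adjusted p = 0.160 from limma) and the chaperone *Bsg*. All 4 had lower TPM in both protrusion libraries than in either cell body library, as did 37.0% of all genes tested. Of the 4, *Bsg* alone passed without the block. These genes were named because they passed with the block, *Slc2a1*, *Sdhb* and *Sdhd* after their values were seen.

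For some members the difference between replicates was larger than that between fractions. The replicate term of the blocked limma fit, a comparison added after the values were seen, was significant for 2 of the 46 members, both higher in replicate 1, against 0.526% of all genes higher in replicate 1 and 1.50% higher in replicate 2. *Pdk1* was 1.87-fold higher in replicate 1 (log2 difference, replicate 2 minus replicate 1, of -0.91, adjusted p = 0.00691 from limma), and *Pgk1* was 1.49-fold higher (-0.57, adjusted p = 0.0349 from limma). *Pfkl* (-0.58, adjusted p = 0.0505 from limma) and *Pfkp* (-0.55, adjusted p = 0.0946 from limma) had similar values. Under median rescaling of the libraries, *Pgk1* had an adjusted p of 0.142 (limma) and *Pfkl* and *Pfkp* passed.

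By pathway, 11 of 16 glycolysis members and 0 of 12 TCA cycle members were higher in replicate 1 in both fractions, as were 27.1% of all genes tested. Of the 46 members, 25 differed more between replicates than between fractions. The same count was not made over all genes, so it cannot be read as particular to the members. Replicates are numbered by the labels, and what set them apart was not tested.

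**Figure D4:**
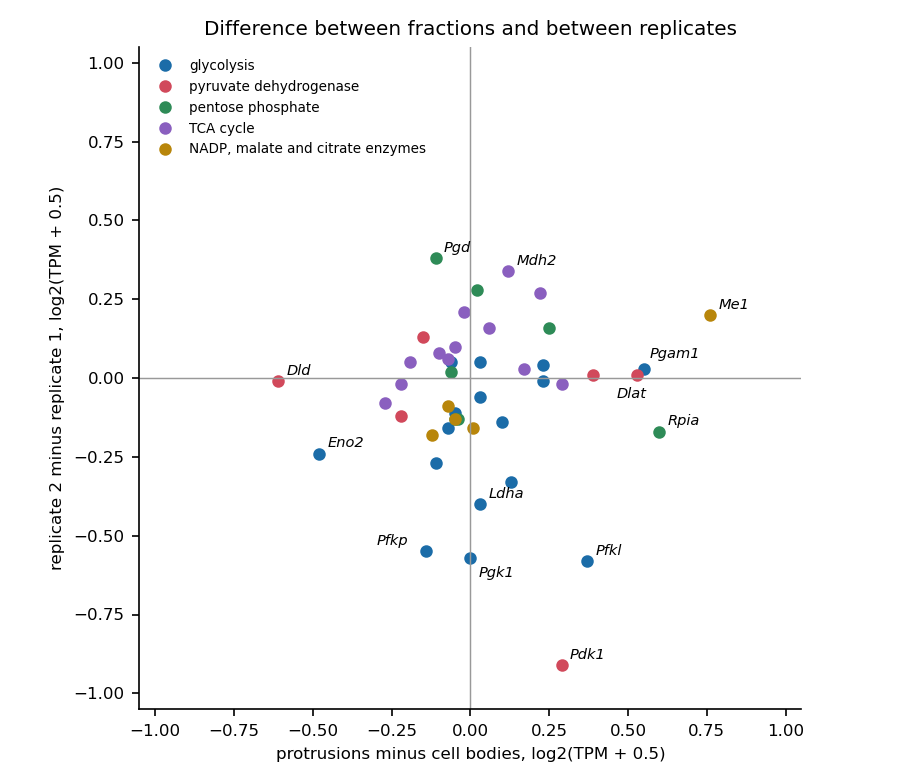
Difference of each tested member between fractions (horizontal, protrusions minus cell bodies) and between replicates (vertical, replicate 2 minus replicate 1), both on the log2(TPM + 0.5) scale, with colors for the 5 groups. *Pdk1*, *Pfkl*, *Pgk1* and *Pfkp* lie lowest, at -0.91 to -0.55 on the vertical axis, while the members that passed between fractions lie to the left or right, within 0.20 of 0 on that axis.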

How the data were processed

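RNA-seq of fractionated YUMM1.7 cells was analysed from the table the authors deposited, with 2 libraries of cell bodies and 2 of protrusions, grouped by their labels. TPM values of every library, which the authors made from stranded reads on mm10, fill that table. The deposited log2 values are the authors' mean log2 CPM and their log2 fold change, and the table also holds the p-value, FDR and likelihood ratio score the authors obtained with edgeR. Except for the mean log2 CPM, these comparison columns were not used. The paper's methods name TopHat, and the submitters' processing notes STAR and featureCounts, with no versions in the notes. No per-sample column was left unused (0).

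A trended limma model (version 3.58.1, in R 4.3.3) was run on log2(TPM + 0.5) for 11400 genes averaging 1 TPM or more, two-sided, with Benjamini-Hochberg adjustment over all of them. It had 3.81 prior degrees of freedom, or 10.2 when blocked. Fold changes on this scale understate those of low genes. The fit was tested on simulated data.

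Ratios of TPM between libraries, scaled by the mean log2 CPM, gave whole reads within 0.01 for all 16537 genes. These reads served for depth and for voom. More deeply read genes have smaller counting error, and 2 libraries of a fraction limit the precision.

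The study's supplementary table pairs the fractions of a replicate, and deviations from the fraction means correlated at 0.447 within a replicate number over 11400 genes. The blocked fit is given for the members that passed in either fit and where it changed a call. It is also given for *Ldha*, *Pgk1*, *Pfkl* and *Pdk1*, whose replicates lay far apart.

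Members, lists and isozyme families were chosen with earlier results of these data known. The genes named are members that passed without or with the block, the 3 most abundant of each group, and all isozymes among the members. The 2 lowest members and other pathway genes that passed without the block were also named. Other names were chosen after their values were seen. Transcripts, 3′ UTRs and GC content came from GENCODE (GRCm38), which held all 48 members. Alternatives covered the block, pseudocount, minimum TPM, scaling, GC content, voom and leaving out each library. The values of some genes are not reported here, and counts of genes include them.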

Additional observations from a re-analysis of the deposited data

How the results depend on the processing

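All 5 members named as passing without or with the block kept their direction under each of the 14 alternatives. Most of these could not have reversed it. The block and the minimum TPM leave a log2 fold change as it is. A pseudocount or a library left out cannot reverse it where the fractions do not overlap, as in these 5. Only scaling, voom and GC correction could have done so. The number of members higher in protrusions was 2, stayed 2 with a pseudocount of 0.1, and became 3 with a pseudocount of 1, median rescaling or quantile normalization, 4 with the replicate block, with a minimum of 5 TPM, with voom and with GC correction, 6 with GC correction and the block together, and 0 with no minimum TPM. The number lower was 1 and became 0 with no minimum and with GC correction. It was 1 with GC correction and the block, where the gene was *Eno2* and *Dld* was lost (-0.31, adjusted p = 0.0720 from limma). Among the other pathway genes, the number higher was 1 and became 0 with no minimum and 3 with GC correction and the block, and the number lower was 1 and became 6 with the replicate block, 2 with a minimum of 5 TPM or voom, 3 with GC correction, 9 with GC correction and the block, and 0 with no minimum, median rescaling or quantile normalization. With any 1 library left out, most or all calls over all genes were lost, so these 4 counts could not be compared there. With GC correction and the block, *Pdk1* (0.45), *Pdk3* (0.53, which also passed without the block) and *Eno2* (-0.55) passed. Without GC correction, the block changed no call of a member other than *Dlat* and *Rpia*. Dropping the minimum TPM left 0 of 16537 genes called, against 826 of 11400 (341 higher, 485 lower), 2434 with the block and 1720 with voom. The share of calls that were higher was affected by scaling, with 481 higher and 558 lower under median rescaling and 876 and 844 with voom.

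Pathway medians lay close to 0 and their sign was not stable. The glycolysis median (0.03) was 0.10 under median rescaling, 0.11 with voom, -0.03 with GC correction with or without the block, and -0.09 to 0.19 with 1 library left out. The pyruvate dehydrogenase median (0.07) was 0.14, 0.15 under quantile normalization, 0.15 with voom, 0.22 with GC correction with or without the block, and -0.14 to 0.18 with 1 library left out. The pentose phosphate median was -0.02 to 0.10 with 1 library left out, the TCA cycle median 0.05 with voom and -0.12 to 0.08 with 1 library left out, and that of the NADP, malate and citrate enzymes 0.02 under median rescaling, 0.04 under quantile normalization, 0.03 with voom, 0.11 with GC correction with or without the block, and -0.11 to 0.03 with 1 library left out. The summed glycolysis TPM of protrusions over cell bodies was 1.04, 1.08 under median rescaling, 1.01 under quantile normalization, and 0.958 to 1.13 with 1 library left out. Of 52 isozyme ratios with 1 library left out, 24 moved by at least the SD between replicates. The cause of these changes was not tested. A lone library in a fraction was assumed to vary like the others. With the replicates compared, 2 members passed, 3 under median rescaling or a pseudocount of 1, and 4 with voom or GC correction. These alternatives were chosen after seeing the data.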

Other observations

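Genes known to be switched on by low oxygen were looked at beside the glycolysis members that differed between replicates. The 20 genes were chosen after values of some had been seen, so the count is a description with no test. Of the 18 that reached 1 TPM, 13 were higher in replicate 1 in both fractions, against 27.1% of all genes tested, and limma called 0 for the replicate, while 5 had an unadjusted p under 0.05. *Bnip3*, which encodes a mitophagy receptor, was at 80.8 and 62.1 TPM in cell bodies and at 90.1 and 60.9 TPM in protrusions. *Ankrd37* was at 16.6 and 11.4 TPM in cell bodies and at 14.3 and 7.86 TPM in protrusions. *Ndrg1* and *Mxi1* were higher in replicate 2 in both fractions, with *Ndrg1* at 2.15 and 2.51 TPM in cell bodies and at 2.33 and 3.17 TPM in protrusions. Between fractions, limma without the block called 0 of the 18 higher and 2 lower in protrusions, against 2.99% and 4.25% of all genes tested. *Plod2*, a collagen lysine hydroxylase, was at 40.5 and 43.5 TPM in cell bodies and at 25.0 and 19.4 TPM in protrusions (adjusted p = 0.0400 from limma), and *Hilpda*, a lipid droplet protein, was at 26.8 and 24.1 TPM in cell bodies and at 16.0 and 13.1 TPM in protrusions (adjusted p = 0.0458 from limma). With the block, limma also called *Egln1* higher (adjusted p = 0.00927). It then also called *Kdm3a* (0.0264), *P4ha1* (0.00388), *P4ha2* (0.0220) and *Ero1l* (0.0172) lower. With the block, 8.08% of all genes were higher and 13.3% lower.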
